A study of Caenorhabditis elegans with 16 samples.

Results

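The miRNA repertoire of wild-type Caenorhabditis elegans embryos was measured by small RNA sequencing at the comma stage, when the embryo has begun to bend and elongate. The description rests on the libraries labelled with the genotype N2, the standard laboratory wild type, which were chosen by that label alone and are 2 of the 16 libraries of the series. The study covered 8 strains, the others being engineered to alter the miR-51 family, and their 14 libraries were not analysed here. N2 carries no engineered allele and no transgene. Each library held 50 whole embryos taken from adult hermaphrodites grown at 20 °C, so a value is an average over all cells of the embryos, and fewer cells with a miRNA cannot be told apart from less of it per cell. The libraries were described as independent duplicates. With 1 group of 2 libraries no test between groups was possible, so means are given with the SD of both libraries.

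miRNAs are cut from hairpin transcripts, first in the nucleus and then by Dicer, which leaves a duplex of the strand from the left arm (5p) and the strand from the right arm (3p). An Argonaute protein usually keeps 1 strand, the guide, and discards the other. The guide finds mRNAs through its seed, a short stretch near its 5′ end, so strands with the same seed form a family that can act on the same targets. In C. elegans the miR-35 and miR-51 families are known to be needed for embryonic development, whereas lin-4 and the let-7 family are known for timing larval development.

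Values are unique molecular identifiers (UMIs), the random adapter bases that mark single ligated molecules, and a share is the percent of all UMIs that a library had on miRNA strands. Replicate 1 held 844718 UMIs and replicate 2 held 229603, a ratio of 3.68. The lists held 324 and 254 strands, 328 in all from 194 hairpins, and 250 strands were in both. The 74 strands listed only in replicate 1 had at most 12 UMIs each and 0.0199% of its UMIs together, and drawing replicate 1 down to the depth of replicate 2 would leave 263 strands on average. A strand without a UMI could have had a share of up to 0.000355% in replicate 1 and 0.00131% in replicate 2, if 3 UMIs are taken as the limit that a count of 0 allows. Intervals and limits cover counting error only. Whether all strands were ligated and sequenced equally well was not tested, so comparisons between strands are comparisons of UMIs.

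Both libraries gave nearly the same repertoire. The median difference was 0.16 on the log2 scale for the 82 strands that had 50 or more UMIs in each, and 0.11 for the 40 that had 1000 or more. Across the 82 strands the logarithms of the shares had a Pearson correlation of 0.995, a description over strands that are not independent replicates. The libraries were not copies of each other, since a chi-square over strands with at least 10 UMIs was 18.1 times its 193 degrees of freedom. That is far more than sampling alone gives, so small differences between neighbouring strands were read against the SD and not against the counting intervals.

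The repertoire was concentrated on few strands. In both libraries 8 strands made up 50% of the UMIs. The share of 90% took 32 strands in replicate 1 and 31 in replicate 2, and 99% took 76 and 71. By annotated length, strands of 22 bases held 52.7% ± 2.26 of the UMIs, those of 23 bases 23.0% ± 0.537 and those of 24 bases 19.9% ± 2.15. The 20 most abundant strands had 78.1% and 79.6% of the UMIs, and 19 of the 20 were shared by both libraries. At the other end, 187 of 324 strands had at least 10 UMIs in replicate 1 and 133 of 254 in replicate 2.

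miR-52-5p, of the miR-51 family, was the most abundant strand, with 12.9% of the UMIs in replicate 1 and 16.1% in replicate 2 (mean 14.5% ± 2.28, SD, n = 2). miR-35-3p, the leading member of the miR-35 family, followed with 7.58% and 7.87%. By UMIs, miR-52-5p was thus 1.88 ± 0.246 times as abundant as miR-35-3p, and the ranges of both strands lay apart. With reads in place of UMIs the ratio of the mean shares was 2.40. The next places were held by miR-36-3p (5.80% and 5.04%), miR-51-5p (4.98% and 5.40%), miR-37-3p (5.38% and 4.64%) and miR-40-3p (5.01% and 4.81%). Their order differed between the libraries, so the 4 strands were not ranked among themselves. miR-39-3p had 4.44% and 4.69%, and miR-58a-3p, the leading strand of the family related to Drosophila bantam, had 4.69% and 4.14%. These also changed places. miR-38-3p had 4.12% and 3.73%.

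Below these, miR-56-3p (3.05% and 3.20%), miR-55-3p (2.88% and 3.12%) and miR-42-3p (3.07% and 2.85%) lay together, and the ranges of neighbours overlapped. miR-54-3p had 2.24% and 2.35%, miR-72-5p 2.04% and 2.10%, and miR-41-3p 1.93% and 1.72%. miR-2-3p, a relative of the Drosophila miR-2 strands, had 1.91% and 1.72%. The last of the 20 were miR-82-3p (1.55% and 1.65%), miR-79-3p (1.69% and 1.40%), miR-73-3p (1.39% and 1.57%) and miR-66-5p (1.39% and 1.41%). Of these 20 strands, 13 belonged to the miR-35 or the miR-51 family.

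**Figure D1:**
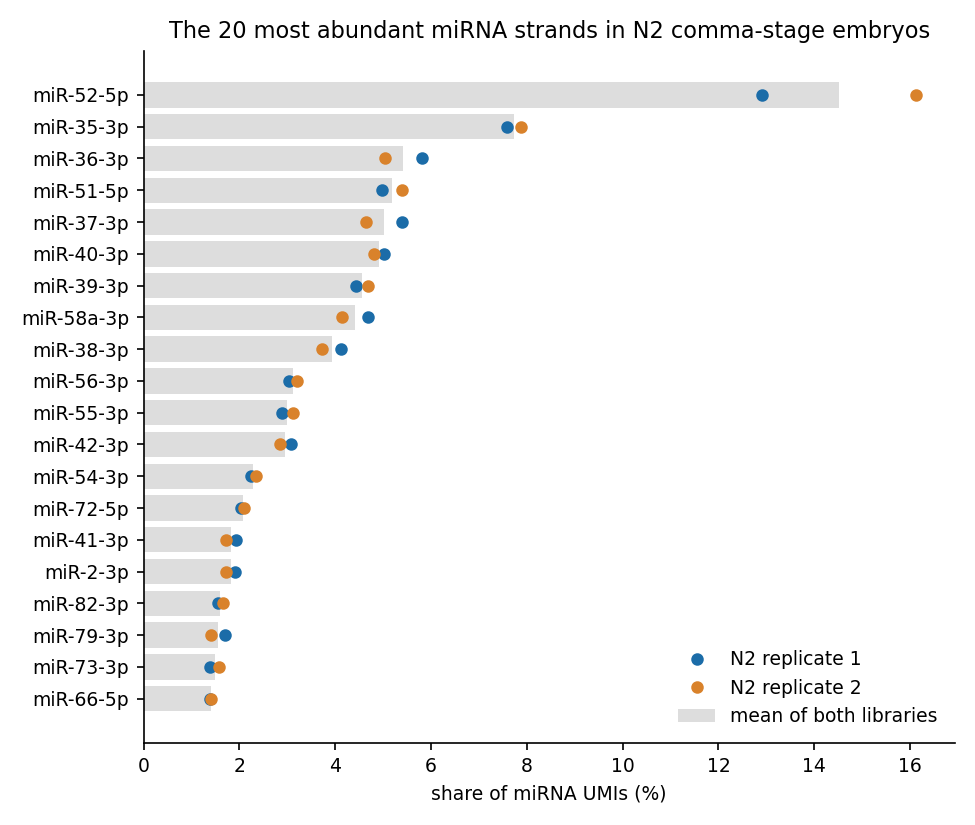
Share of miRNA UMIs (x axis, percent) of the 20 most abundant strands; points are the N2 libraries and grey bars their mean. miR-52-5p stands apart at 12.9% and 16.1%, and the shares then decline to 1.39% and 1.41% for miR-66-5p.

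Grouped by seed as the families are published, 2 families held most of the miRNA UMIs. The miR-35 family had 37.3% of the UMIs in replicate 1 and 35.3% in replicate 2 (36.3% ± 1.42), and the miR-51 family 26.7% and 30.8% (28.7% ± 2.90). Together they made up 65.1% of the repertoire. The miR-35 family was the larger one in both libraries, by a ratio of 1.40 and 1.15. It reached its share with 8 members, all among the 20 most abundant strands, and its largest, miR-35-3p, held 20.3% and 22.3% of the family. The miR-51 family had 6 members, of which miR-52-5p held 48.3% and 52.4% of the family.

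Within the miR-35 family the members were spread over a 4.25 ± 0.466-fold range, from miR-35-3p to miR-41-3p. miR-42-3p, the only member from another locus, had 0.383 ± 0.0304 times the UMIs of miR-35-3p and lay between miR-38-3p and miR-41-3p. Within the miR-51 family, the family of the conserved animal miRNA miR-100, the smallest member was miR-53-5p with 0.635% and 0.606%. It was as abundant as miR-52-3p, the strand opposite the miR-52 guide, which had 0.704% and 0.623% and a ratio to miR-53-5p of 1.11 and 1.03. A strand of the kind that is usually discarded was thus counted at the level of a guide of the same family.

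The miR-58 family had 8.27% and 7.86% of the UMIs (8.06% ± 0.286). miR-58a-3p accounted for the largest part, and miR-82-3p, miR-80-3p (1.09% and 1.11%) and miR-81-3p (0.935% and 0.963%) for nearly all of the rest. miR-58b-3p had 3 UMIs in replicate 1 and was not listed in replicate 2. The ratio of miR-58a-3p to miR-82-3p was 3.02 and 2.51. A few UMIs fitted both miR-81-3p and miR-82-3p and were divided by the authors (21.5 from each strand in replicate 1), too few to affect the values.

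The miR-72 family, related to miR-31 of other animals, had 4.41% and 4.57%, from miR-72-5p, miR-73-3p and miR-74-3p (0.988% and 0.897%). The miR-64 family had 4.23% and 4.41%. Its leading member, miR-66-5p, was followed by miR-64-5p (1.13% and 1.22%), miR-65-5p (0.973% and 1.08%) and miR-229-5p (0.726% and 0.693%), and miR-63-3p far below at 0.0123% and 0.0109%. The ratio of the miR-64 to the miR-72 family was 0.957 and 0.966, so the order was the same in both libraries although the shares lay close.

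The miR-50 family had 2.28% and 2.43%, from miR-90-3p (1.26% and 1.46%), miR-62-3p (0.601% and 0.529%) and miR-50-5p (0.423% and 0.442%). The miR-2 family had 2.57% and 2.10%, and the order of these families changed between the libraries. Its members were miR-2-3p, miR-43-3p (0.612% and 0.355%), miR-250-3p (0.0445% and 0.0257%) and miR-797-5p (0.00213% and 0.00218%). The miR-44 family, which contains miR-61, known from vulval fate specification in the larva, had 1.79% and 1.48%. miR-61-3p had 0.161% and 0.140% and miR-247-3p 6 and 4 UMIs. The rest was carried by miR-44-3p and miR-45-3p, whose reads fitted both hairpins. Counted in full, miR-44-3p had 13790 UMIs and miR-45-3p 13793 in replicate 1, and the authors' division left 6896 and 6899, so their separate levels are uncertain. Their 5p strands were told apart: miR-44-5p had 370 and 111 UMIs and miR-45-5p 85 and 22, a ratio of 4.35 and 5.05.

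By share, the strands that mark stages fitted an embryonic label. Only 1 stage was analysed, so the values do not tell the comma stage from other embryonic stages. The miR-35 family, known as abundant in embryos, was the largest family. The larval timing strands had small shares, though let-7-5p and miR-48-5p were not low in the ranking of the 324 and 254 strands. let-7-5p had 179 and 56 UMIs (0.0212% and 0.0244%, ranks 89 and 80). miR-48-5p had 216 and 36 (ranks 82 and 91), miR-84-5p 19 and 3, and miR-241-5p 16 and 3. lin-4-5p had 62 UMIs in replicate 1 (0.00734%) and 6 in replicate 2 (0.00261%), and its relative miR-237-5p 11 and 2. miR-795-5p, also of the let-7 family, had 1 UMI in each. All of the timing strands and these relatives were thus detected, and the 7 strands together had less than miR-228-5p.

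Strands known from single tissues differed widely in level. miR-1-3p, the muscle miRNA of many animals, had 1.27% and 1.24% (1.26% ± 0.0198). miR-124-3p, known from neurons, had 0.492% and 0.319%, and miR-228-5p, known from glia, 0.248% and 0.231%. lsy-6-3p, which acts in a single taste neuron, had 40 and 11 UMIs, which are shares of 0.00474% and 0.00479%. The level of lsy-6-3p in whole embryos was close to that of lin-4-5p, and the order of the pair differed between the libraries.

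**Figure D2:**
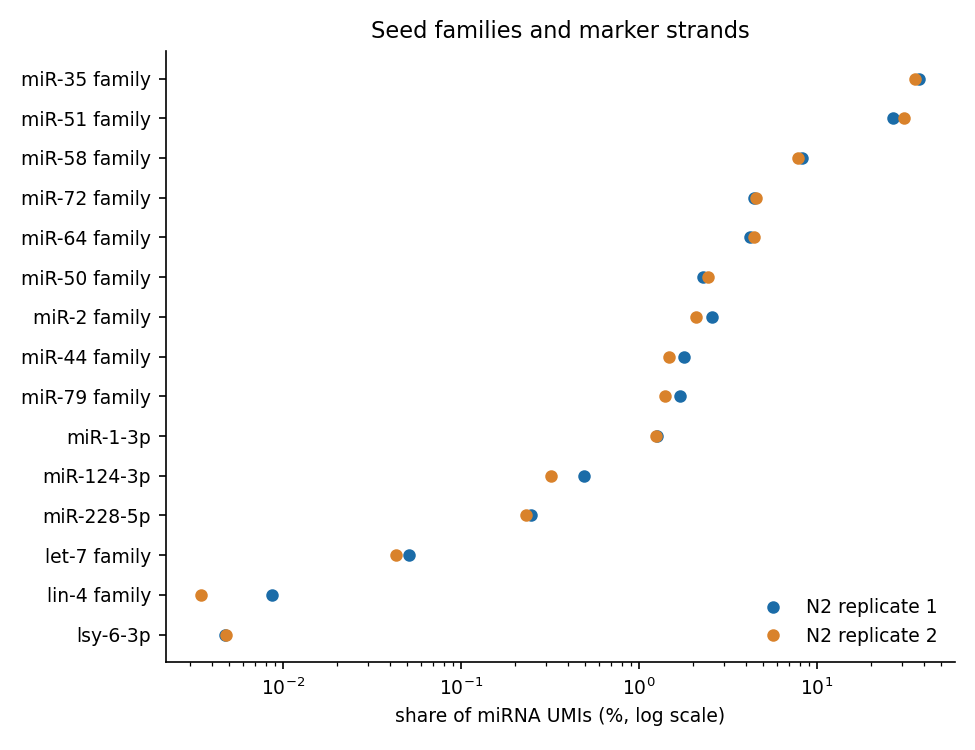
Share of miRNA UMIs (x axis, percent, log scale) of the 10 largest families and of marker strands; points are the N2 libraries. The miR-35 and miR-51 families lie at 37.3% to 26.7%, muscle miR-1-3p near 1.26%, and the let-7 and lin-4 families more than 10 times lower than miR-1-3p.

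Coordinates are those of the WBcel235 assembly in Ensembl release 115. Hairpins on the same strand with at most 10 kb between neighbours were taken as 1 locus, which gave 147 loci for the 190 hairpins that could be placed. Of these loci, 22 had at least 2 hairpins, and these held 66.0% and 64.5% of the UMIs. The 8 largest loci held 78.5% and 79.9%. Chromosome II carried 42.2% ± 1.82 of the UMIs and chromosome IV 26.5% ± 1.94. Chromosome X followed with 15.4% ± 0.364 although it held the most hairpins (60), and chromosome V held 0.814% ± 0.104.

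The largest locus was the mir-35 to mir-41 cluster on the plus strand of chromosome II, from 11537608 to 11538404, with 34.4% and 32.6% of the UMIs on 7 hairpins within 797 bases. It lies opposite an intron of the protein-coding gene Y62F5A.9. Along the cluster the shares did not decline evenly. They fell from mir-35 (7.60% and 7.88%) over mir-36 (5.81% and 5.05%) and mir-37 (5.40% and 4.65%) to mir-38 (4.13% and 3.75%). They were higher again at mir-39 (4.47% and 4.70%) and mir-40 (5.03% and 4.82%), and lowest at the last hairpin, mir-41 (1.95% and 1.73%). This shape was present in both libraries.

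mir-52 followed with 13.6% and 16.8%, from a single hairpin on chromosome IV (plus strand, 14034008 to 14034107). The mir-54 to mir-56 cluster on the minus strand of chromosome X, 404 bases long from 13144691 to 13145094 and opposite an intron of F09A5.3, had 8.52% and 8.99%. There the shares were higher with each hairpin, from mir-54 (2.40% and 2.50%) over mir-55 (2.96% and 3.18%) to mir-56 (3.15% and 3.31%). The locus of mir-53 and mir-51 on chromosome IV, minus strand from 11026013 to 11027691, had 5.71% and 6.09%, of which mir-53 had 0.641% and 0.612%. With a limit of 1 kb between neighbours these hairpins were separate loci, since 1480 bases lie between them.

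mir-58a had 4.83% and 4.30%. It lies in an intron of Y67D8A.2 on chromosome IV (plus strand, 3233254 to 3233350). The cluster of mir-229, mir-64, mir-65 and mir-66 lies in introns of gcn-1 on the plus strand of chromosome III, from 2172452 to 2173206, and had 4.29% and 4.47%. The cluster of mir-42, mir-43 and mir-44, on the plus strand of chromosome II from 11889811 to 11890118, had 4.64% and 4.04%. The order of these 3 loci differed between the libraries. In the mir-42 cluster the first hairpin had 3.12% and 2.91%, mir-43 0.656% and 0.405%, and mir-44 0.860% and 0.718%, the last with divided reads. The eighth locus was that of mir-90, mir-238 and mir-80 on the minus strand of chromosome III, from 8865270 to 8874084, with 2.49% and 2.70%. Its middle hairpin, mir-238, had 0.0530% and 0.0510%, far below mir-90 (1.40% ± 0.139) and mir-80 (1.14% ± 0.0150). With a limit of 1 kb it was split as well.

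Of the placed hairpins, 55 overlapped a protein-coding gene on the same strand and held 18.4% ± 0.607 of the UMIs. The 24 hairpins that overlapped one only on the opposite strand held 43.2% ± 0.933, most of it from the mir-35 and mir-54 clusters. The other 111 hairpins held 38.3% ± 1.54.

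**Figure D3:**
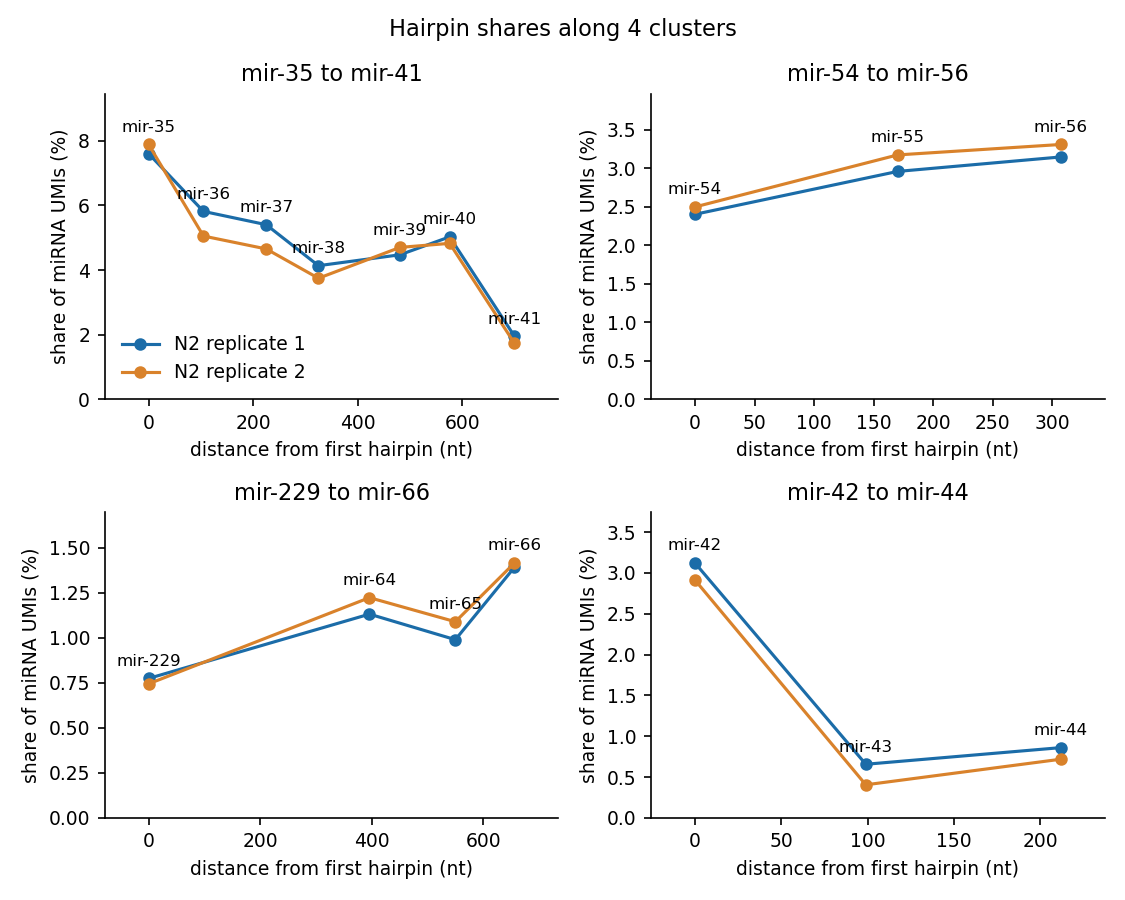
Share of miRNA UMIs of each hairpin (y axis, percent, both strands added) against its distance from the first hairpin of the cluster in the direction of transcription (x axis, bases) in 4 clusters; lines join the hairpins of 1 N2 library. mir-35 to mir-41 declines from 7.60% and 7.88% to 1.95% and 1.73% with a rise at mir-39 and mir-40, whereas mir-54 to mir-56 increases.

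Arm use was one-sided. Among the 59 hairpins with at least 50 UMIs in each library, 43 had more UMIs on the 3p strand in both libraries and 16 more on the 5p strand, and 0 changed sides. These hairpins carried 99.5% and 99.6% of the UMIs. They include mir-44 and mir-45, whose 3p UMIs were nearly all shared and divided between them, so their separate arm ratios are uncertain. The higher strand of each hairpin held 97.5% and 97.7% of all UMIs. The 3p strands held 71.4% and 67.7% of all UMIs. The median share of the lower strand within its hairpin was 3.28%, and in 14 hairpins with UMIs on both strands it was under 1% in both libraries. These 59 hairpins left a wide gap. On the 3p side the 5p strand reached 20.0% and 26.2% at most, for mir-4813. On the 5p side its mean was lowest for mir-228, at 91.8% and 93.0%. The gap depends on the minimum, since hairpins that missed it only in replicate 2 lay inside. Examples by 5p share are mir-239a (90.5% and 76.2%), mir-259 (78.0% and 83.3%) and mir-1829a (36.4% and 40.0%).

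Of the 8 most 3p-sided hairpins, 6 were from the mir-35 cluster. mir-36 had 78 UMIs on the 5p strand against 49027 on the 3p strand in replicate 1 and 22 against 11575 in replicate 2. On the log2 scale its ratio of 5p to 3p was -9.17 ± 0.18. mir-35 had a ratio of -8.99 ± 0.34, mir-40 -8.70 ± 0.18, mir-37 -8.21 ± 0.05, mir-38 -7.94 ± 0.11 and mir-39 -7.83 ± 0.68. The others of the 8 were mir-82 (-8.66 ± 0.58), which lay among them, and mir-74 (-7.45 ± 0.33). mir-41, the last hairpin of the cluster, was less one-sided, at -6.75 ± 0.09.

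On the 5p side, let-7 had 179 and 56 UMIs on the 5p strand and none on the 3p strand, which allows a 3p share of up to 1.68% in replicate 1 and 5.36% in replicate 2. mir-66 had 11711 UMIs on the 5p strand against 40 on the 3p strand, and 3244 against 5, a log2 ratio of 8.77 ± 0.81. mir-64 followed with 8.54 ± 0.13, mir-53 with 6.69 ± 0.08, mir-65 with 6.20 ± 0.45 and mir-51 with 6.02 ± 0.26. mir-50 had 5.21 ± 0.36 and mir-72 5.17 ± 0.09. Members of a seed family were not always on the same arm. The guides of mir-51, mir-52 and mir-53 lay on the 5p arm and those of mir-54, mir-55 and mir-56 on the 3p arm, and mir-72 and mir-50 also differed in arm from their relatives mir-73, mir-74, mir-62 and mir-90.

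Among the 59 hairpins past the minimum, those nearest to equal use were all 3p-sided. mir-4813, which overlaps an exon of idhg-1, had 60 UMIs on the 5p strand against 240 on the 3p strand, and 17 against 48. mir-250 had 75 against 376, and 19 against 59. mir-46 had 656 against 2731 and 165 against 622, so that its 5p strand had 19.4% and 21.0% of its UMIs. mir-47 (10.5% and 18.0%), mir-83 (12.6% and 11.9%), mir-8196a (14.8% and 9.30%), mir-43 (6.71% and 12.2%) and mir-62 (9.39% and 6.33%) completed the group. In mir-43 the 3p strand had 5172 and 816 UMIs and the 5p strand 372 and 113, so the 3p strand differed more between the libraries than the 5p strand.

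**Figure D4:**
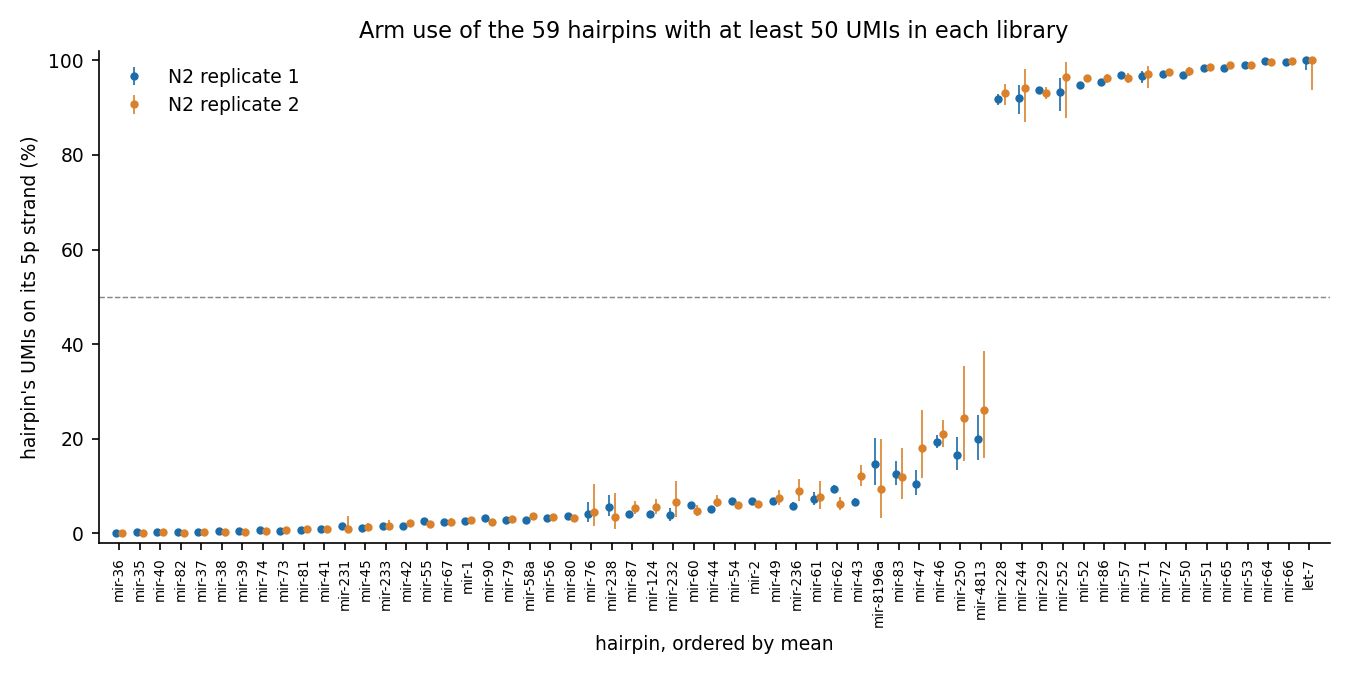
Percent of a hairpin's UMIs on its 5p strand (y axis) for the 59 hairpins with at least 50 UMIs in each library, ordered by mean (x axis); points are the N2 libraries, vertical lines exact 95% intervals for counting error and the dashed line equal use. None of the 59 hairpins lies between the 26.2% of mir-4813 and the 91.8% of mir-228, whereas some hairpins below the minimum, not shown, do.

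The authors' lists divide the UMIs of each strand into columns named GM and PM, which added up to the total for every strand. The names are not spelled out in the sources used here. In small RNA pipelines that follow 3′ tails such names usually stand for reads that match the genome over their whole length and reads that match only up to added 3′ bases, but the columns were treated only as parts of the total. The PM column held 3.13% of the UMIs in replicate 1 (exact 95% interval 3.09% to 3.16%) and 2.86% in replicate 2 (2.79% to 2.93%).

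The PM share differed between strands and was similar in both libraries. Among the 66 strands that had 100 or more UMIs in each library, the mean share ranged from 0.438% to 10.5%, with a median of 1.94% and 2.11%. The shares in the libraries had a Pearson correlation of 0.897 and a Spearman correlation of 0.833 across strands, and the intervals overlapped for 63 of the 66 strands. The share was over 5% in both libraries for 10 strands and under 1% in both for 7.

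Among these 66 strands miR-38-3p had the highest PM share, with 3814 of 34770 UMIs in replicate 1 (11.0%) and 866 of 8567 in replicate 2 (10.1%). It was followed by miR-64-5p (9.90% and 10.1%), miR-229-3p (10.9% and 7.63%, from 405 and 118 UMIs) and miR-41-3p (8.50% and 6.67%). miR-61-3p (7.05% and 7.17%), miR-43-3p (5.30% and 7.11%), miR-1-3p (6.39% and 5.79%), miR-39-3p (6.33% and 5.67%), miR-62-3p (6.78% and 5.02%) and miR-40-3p (5.40% and 5.83%) completed the upper 10. A higher share was found for miR-62-5p, which was below the minimum, with 76 of 526 UMIs (14.4%) and 14 of 82 (17.1%). The miR-35 family held 57.2% and 56.4% of all PM UMIs, against 37.3% and 35.3% of all UMIs, and miR-38-3p alone held 14.4% and 13.2%.

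Relatives and neighbours had different PM shares. Within the miR-35 family, miR-38-3p at 11.0% and 10.1% stood against miR-35-3p at 3.73% and 3.85%, miR-36-3p at 3.35% and 2.99%, miR-37-3p at 1.82% and 1.83% and miR-42-3p at 1.48% and 1.27%. The counting intervals of miR-38-3p and miR-37-3p, whose hairpins lie 2 bases apart, were 10.6% to 11.3% and 1.70% to 1.94% in replicate 1. In the mir-64 cluster, miR-64-5p at 9.90% and 10.1% stood against miR-65-5p at 3.68% and 3.56%, miR-66-5p at 1.49% and 1.17% and miR-229-5p at 1.16% and 1.32%. The miR-51 family members extended from miR-55-3p, with 2.91% and 2.57%, to miR-53-5p, with 0.671% and 0.862%, and miR-52-5p had 1.04% and 0.832%.

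The lowest shares were those of miR-57-5p (0.625% and 0.250%) and miR-238-3p, with 5 of 423 UMIs in replicate 1 and 0 of 113 in replicate 2, which allows up to 2.65%. miR-82-3p (0.507% and 0.714%), miR-86-5p (0.654% and 0.607%), miR-73-3p (0.682% and 0.609%), miR-49-3p (0.546% and 0.778%) and miR-53-5p (0.671% and 0.862%) came next. miR-54-5p (0.724% and 0.857%), miR-90-3p (1.03% and 0.655%) and miR-52-3p (1.03% and 0.839%) were the last of the lower 10.

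Among the higher strands of their hairpins, the 40 3p strands had a median PM share of 2.32% and 2.52% and the 13 5p strands of 1.16% and 1.28%. The 3p median in replicate 1 lies at the value of miR-44-3p and miR-45-3p (2.32% each), which share nearly all of their UMIs. The ranges overlapped widely, since miR-64-5p is a 5p strand and miR-238-3p a 3p strand. The 13 lower strands had a median of 1.92% and 1.82%. By abundance in replicate 1, the median was 1.94% and 1.85% in the 23 strands with at least 10000 UMIs, 1.93% and 2.15% in the 28 strands with 1000 to 10000, and 1.92% and 2.38% in the 15 strands with under 1000. The medians of the classes were close in replicate 1 and were higher in the less abundant classes in replicate 2.

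**Figure D5:**
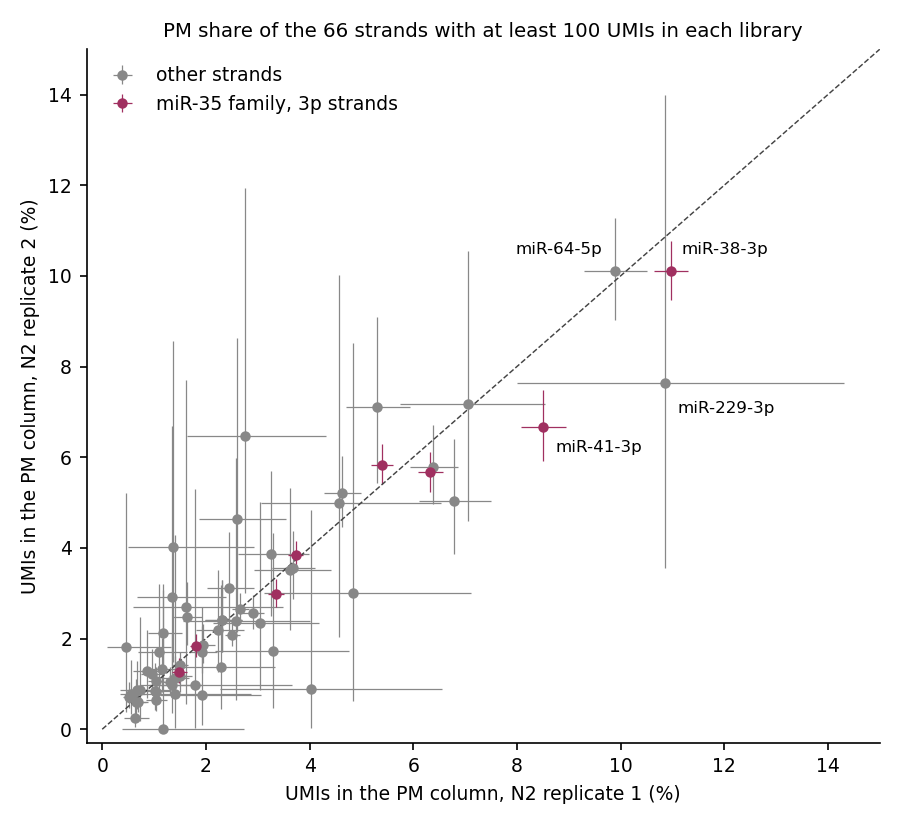
Percent of a strand's UMIs in the PM column in N2 replicate 1 (x axis) and N2 replicate 2 (y axis) for the 66 strands with at least 100 UMIs in each; lines are exact 95% intervals for counting error, the dashed line marks equal values and the miR-35 family is coloured. Members of that family extend from 1.48% and 1.27% to 11.0% and 10.1%.

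Few strands differed by a large factor between the libraries, although the shares differed by more than sampling alone gives. Of the 82 strands with at least 50 UMIs in each, 5 differed by more than 1.5-fold, and all 5 had the higher share in replicate 1. miR-231-3p was 2.10 times as high there (95% interval 1.81 to 2.44, from the counting error of both libraries on the log scale), with 1497 and 194 UMIs. miR-62-5p (1.74 times), miR-250-3p (1.73 times), miR-43-3p (1.72 times) and the neuronal miR-124-3p (1.54 times, 1.42 to 1.67) followed. miR-42-3p and miR-44-3p, from the same cluster as miR-43-3p, differed less, with 3.07% and 2.85% and with 0.816% and 0.670%. The other 5 of the 10 most different strands were miR-236-5p, at 0.723 times, miR-47-3p (1.35), miR-232-3p (1.30), miR-55-5p (1.28) and miR-86-3p (1.27). Whether the libraries differed in the age or handling of the embryos was not tested.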

How the data were processed

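Small RNAs were enriched from TRIzol extracts of 50 embryos per library, ligated to barcoded adapters with random bases and sequenced on an Illumina HiSeqV4 instrument. The authors mapped reads with a Nextflow pipeline and deposited, for each strand, estimated counts of reads and of UMIs, which split a read or UMI when it could belong to more than 1 strand, and whole-number counts of UMIs in full for every strand, without normalization. The submitters' processing notes name the WBcel235 build. The aligner, its version and the miRNA annotation are not given in the sources used here. The spike-ins are not in the lists used here, so values are shares and not amounts, and a larger share of 1 strand lowers all others.

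Depth was 844718 and 229603 UMIs, with 1.27 and 1.10 reads per UMI. Divided UMIs were used throughout, and strands not listed in a library were taken as 0. Shares, summed shares of families and loci, arm ratios (at least 50 UMIs per hairpin in each library) and PM shares (at least 100 UMIs per strand) were computed per library with exact Clopper-Pearson 95% intervals in Python 3.11.15 with numpy 2.4.6, pandas 2.3.3, scipy 1.17.1 and matplotlib 3.10.9, and the interval function was tested on simulated data. Families are 17 published groupings with 61 strands, of which 60 were listed, and every other strand counts as a family of its own. No miRNA sequences were used here, so grouping by the bases of the seed, first-base features and the seed alternatives were not run. Coordinates, annotated lengths and overlaps with protein-coding genes come from Ensembl release 115. let-7 was placed by its RefSeq coordinates on the same assembly, and 4 of the 194 hairpins could not be placed.

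The strands named are the 20 with the highest mean share, members of the 8 largest families and of the let-7, lin-4, miR-1, miR-124 and lsy-6 groups, the 8 largest loci, the 8 most 5p-sided, most 3p-sided and most equal hairpins, the 10 highest and 10 lowest PM shares, and the 10 strands that differ most between the libraries among those with at least 50 UMIs in each. The glial miR-228-5p was on the list of cell type markers. Other strands and hairpins set beside these (such as mir-228, miR-52-3p and the relatives in a family or cluster) were chosen after their values were seen. The members and lists were chosen with earlier results of these data known. Alternatives were reads, UMIs in full, added libraries, the GM column, minimum counts of 10, 20, 500 or 1000, locus gaps of 1 and 50 kb, reads rescaled by reads per UMI, and each library left out.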

Additional observations from a re-analysis of the deposited data

How the results depend on the processing

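The miR-35 family was larger than the miR-51 family under every alternative that can alter family shares. The ratio of mean shares lay between 1.14 (reads) and 1.40 (replicate 1 alone). Locus gaps and the minimums for arm ratios and PM shares do not enter this ratio. With reads in place of UMIs, the 20 most abundant strands had 80.5% of the library, the higher strands 97.8% and the PM column 2.62%. Rescaling reads by 1 factor per library leaves shares as they are with reads and again gave 80.5%. The number of 5p-sided hairpins rose from 16 to 27 with both libraries added and to 27 with a minimum of 10 UMIs, since more hairpins passed. With 500 UMIs 12 were 5p-sided and 33 3p-sided. With 1 library left out, the 20 most abundant strands had 78.1% to 79.6%, the miR-35 family 35.3% to 37.3%, the miR-51 family 26.7% to 30.8%, the mir-35 to mir-41 locus 32.6% to 34.4%, the higher strands 97.5% to 97.7% and the PM column 2.86% to 3.13%. There were 43 to 57 3p-sided and 16 to 26 5p-sided hairpins. No hairpin named for its arm ratio changed sides under any alternative run.

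Counted in full, the miR-44 family had 3.08%, since miR-44-3p and miR-45-3p share their reads. With a locus gap of 1 kb, mir-53 alone had 0.627% and mir-90 alone 1.40%. With both libraries added, the PM share of miR-238-3p was 0.933%. Other values for single strands, families, loci and hairpins moved by less than 1.5-fold, single libraries aside. By the narrower bar of 1 SD of both libraries, more values moved. With reads these were 10 of 20 strand shares, 7 of 20 PM shares, 4 of 7 smaller loci and 2 of 6 smaller families. Across all alternatives, single libraries included, 50 such results moved and 485 did not. Among the summary values of the paragraph above, with hairpin counts judged at 1.5-fold, 7 moved and 56 did not. Grouping by seed bases and its alternatives were not run, for lack of sequences. No paired analysis was possible because only 1 group was used and the values come from no test. Depth limits the rare strands: 57 strands in replicate 1 and 49 in replicate 2 rest on 1 UMI or less, and lin-4-5p rests on 6 UMIs in replicate 2.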

Other observations

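The number of reads per UMI differed between strands. miR-52-5p had 1.64 reads per UMI in replicate 1 and 1.26 in replicate 2, the highest value in both libraries among strands with at least 1000 UMIs in replicate 1. The strands with under 1000 UMIs had 1.06 and 1.02 together. Abundance and reads per UMI did not go together strictly: miR-62-3p, with 5073 UMIs in replicate 1, had 1.44, whereas miR-35-3p, with 64049 UMIs, had 1.19. By reads in place of UMIs, miR-52-5p was 2.40 times as abundant as miR-35-3p, against 1.88 by UMIs. The part of the number of distinct random adapter sequences in this difference was not tested.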
